A study of Mus musculus with 73 samples.

Results

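Paneth cells sit at the base of the small intestinal crypts, between the Lgr5+ stem cells, and fill their granules with antimicrobial proteins. Beside the alpha-defensins they make a set of other secreted products. A total of 8 genes, listed by name, were described here: *Lyz1*, *Mptx1*, *Mptx2*, *Ang4*, *Itln1*, *Mmp7*, *Clps* and *Guca2b*. The list was chosen with earlier results of these data known, so it is not independent of them. They were 8 of the 17399 genes in the epithelial count table, of 20882 in the microdissection table and of 21058 in the single-cell table. *Lyz1* encodes lysozyme, which cleaves the bacterial cell wall. *Mptx1* and *Mptx2* encode mucosal pentraxins, relatives of the serum pentraxins. *Ang4* encodes a ribonuclease of the angiogenin family with antimicrobial activity, and *Itln1* a lectin, intelectin, that binds microbial glycans and is made by goblet cells as well. *Mmp7* encodes matrilysin, the protease that trims pro-defensins to their active form in mice. *Clps* encodes colipase, the cofactor of pancreatic lipase. *Guca2b* encodes uroguanylin, a peptide ligand of the guanylate cyclase C receptor of the gut epithelium, and is known mainly from villus enterocytes.

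The genes were followed in 3 experiments on mouse jejunum. The epithelium came from Lgr5(GFP-ires-DTR/+) mice, 4 months old, that carry a diphtheria toxin receptor at 1 *Lgr5* allele, 48 h after diphtheria toxin (DT, 4 mice) or after mock injection (4 mice). Both groups carried the receptor allele. It is expressed wherever *Lgr5* is, so crypt stem cells and the telocytes of the villus tip (large stromal cells with long extensions) both carry it. In wild-type C57BL/6 mice, 3 months old, stroma was cut out by laser capture microdissection (LCM) as crypt (6 sections, 3 mice), villus bottom (8 sections, 5 mice), villus center (7 sections, 5 mice) and villus tip (8 sections, 5 mice), and single cells or cell pairs of 8 mice were sorted into plates by 12 gates on EPCAM, PDGFRa, NT5E, CD45 or CD31. The epithelial libraries held 748458 to 4210158 unique molecular identifiers (UMIs, counts of original molecules). The authors' LCM values were transcripts per 1e6 and keep no read number, so their depth is unknown. Values in the epithelium are counts per 1e6 UMIs (CPM) after TMM scaling of the library sizes. The mock and DT samples fell into batches a (replicates 1 and 2 of each group) and b (replicates 3 and 4).

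The genes lie apart in the genome (GRCm38, all protein coding). *Lyz1* is on chromosome 10 (117287797 to 117292868), 3 of them are on chromosome 1 (*Itln1*, 171518122 to 171535294, *Mptx2*, 173274382 to 173277777, and *Mptx1*, 174330518 to 174332873), *Guca2b* is on chromosome 4 (119656607 to 119658954), *Mmp7* on chromosome 9 (7692090 to 7699585), *Ang4* on chromosome 14 (51763878 to 51773590) and *Clps* on chromosome 17 (28558149 to 28560766). RefSeq start-site windows (GRCm38.p6, 250 bases before to 50 after the start) matched 7 of the 8 genes, all but *Clps*. The windows of the mucosal pentraxin pair are shown to compare the sequences of these related genes. Most of each window lies before the start, so the windows do not show how reads are assigned. They were identical at 254 of 325 aligned positions (78.2%), and the capitals mark their longest shared run, 61 bases.
Mptx1, chr1:174330268-174330567, plus strand: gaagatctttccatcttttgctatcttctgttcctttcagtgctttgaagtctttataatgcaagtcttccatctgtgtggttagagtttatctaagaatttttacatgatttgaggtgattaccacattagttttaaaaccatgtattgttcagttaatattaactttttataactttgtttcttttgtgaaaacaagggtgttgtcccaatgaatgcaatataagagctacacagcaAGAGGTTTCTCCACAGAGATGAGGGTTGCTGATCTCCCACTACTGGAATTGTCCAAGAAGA
Mptx2, chr1:173277707-173278006, minus strand: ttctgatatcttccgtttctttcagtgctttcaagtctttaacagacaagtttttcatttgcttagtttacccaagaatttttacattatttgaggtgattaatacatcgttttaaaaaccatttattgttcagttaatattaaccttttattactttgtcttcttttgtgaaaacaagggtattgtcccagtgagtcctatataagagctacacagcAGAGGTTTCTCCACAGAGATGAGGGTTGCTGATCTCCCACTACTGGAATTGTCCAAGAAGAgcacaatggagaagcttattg
In the annotated transcripts the longest identical run of *Mptx2* and *Mptx1* was 112 bases, and 48 within the last 400 bases, the end that a 3′ tag library reads. For *Lyz1* and its neighbour *Lyz2*, which macrophages use, these runs were 118 and 104 bases. For *Ang4* and *Ang* they were 31 and 23, and for *Guca2b* and *Guca2a* 11 and 9. How reads within such runs were assigned was not tested, so the levels of both pairs with long runs are uncertain to that degree.

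Windows of 3 more genes are shown for a highly expressed gene with a lower level after DT, a gene that fell, and a gene with nearly equal levels in both groups. Capitals mark matches to CTTTGA or CTTTGT on either strand, letters recognised by TCF factors of the Wnt pathway, on which Paneth cell maturation is known to depend.
Lyz1, chr10:117292819-117293118, minus strand: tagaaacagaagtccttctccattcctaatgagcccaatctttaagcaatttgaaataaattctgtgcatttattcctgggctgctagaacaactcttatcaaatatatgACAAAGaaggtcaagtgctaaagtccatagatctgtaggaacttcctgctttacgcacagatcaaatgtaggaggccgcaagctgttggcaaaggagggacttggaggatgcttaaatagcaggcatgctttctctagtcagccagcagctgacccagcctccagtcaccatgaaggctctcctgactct
Itln1, chr1:171535245-171535544, minus strand: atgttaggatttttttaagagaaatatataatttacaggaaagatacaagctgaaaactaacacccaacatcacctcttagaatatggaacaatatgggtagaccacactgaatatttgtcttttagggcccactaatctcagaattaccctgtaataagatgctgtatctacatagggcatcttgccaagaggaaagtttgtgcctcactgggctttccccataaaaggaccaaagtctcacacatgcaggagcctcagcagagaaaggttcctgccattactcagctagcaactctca
Guca2b, chr4:119658896-119659195, minus strand: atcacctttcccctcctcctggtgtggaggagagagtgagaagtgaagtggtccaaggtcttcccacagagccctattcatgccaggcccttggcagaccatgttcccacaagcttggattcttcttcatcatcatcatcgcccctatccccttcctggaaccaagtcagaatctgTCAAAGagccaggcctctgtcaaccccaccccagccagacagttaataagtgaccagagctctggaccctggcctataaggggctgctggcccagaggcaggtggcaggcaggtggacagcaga
A match was present in 6 of the 7 genes with a window, all but *Itln1*, and in 31.2% of all 32851 windows, a share per window and not per gene. *Lyz1*, *Mptx2* and *Guca2b* each had a match and *Itln1* had none. Whether these letters bear on the expression described next was not tested.

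After DT, *Mptx2* and *Itln1* fell and none of the 8 genes was called higher. Of the 8986 genes tested with edgeR across the epithelium, 0.334% were called lower and 0.0223% higher at an adjusted p of 0.05, and 2 of the 8 genes were called, both lower. The log2 fold change was negative for 6 of the 8, with a median of -1.61, beside 0.00 over all genes tested. The other 2, *Mptx1* and *Guca2b*, had values of 0.05 and 0.04. The levels of *Mptx2*, *Itln1* and *Clps* did not overlap between the groups, which 1.87% of all tested genes also showed in this direction. The number of Paneth cells in each sample was not measured, so fewer of them in a sample and less RNA per cell cannot be told apart.

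**Figure D1:**
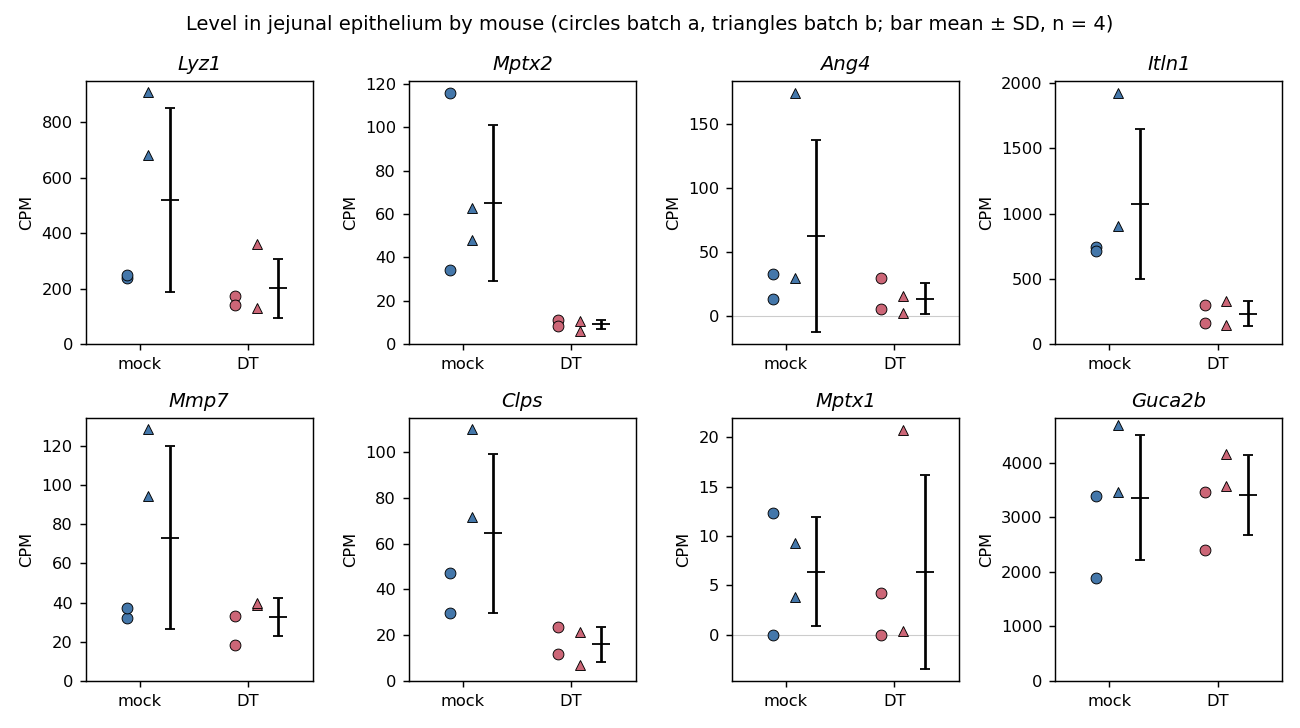
Level of each gene (CPM, linear axis) in the epithelium of the 4 mock and 4 DT mice, with circles for batch a, triangles for batch b, and a bar for the mean ± SD of each group. *Mptx2*, *Itln1* and *Clps* separate the groups, *Guca2b* lies between 1887 and 4690 CPM in both, and in mock batch b *Lyz1* and *Mmp7* stand above batch a.

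*Mptx2* had 34.1, 116, 62.7 and 47.9 CPM in mock replicates 1 to 4 and 10.97, 8.36, 10.8 and 6.31 CPM in the DT replicates. Every DT mouse was below every mock mouse, and the DT mice were close to each other. The group means were 65.2 ± 35.8 and 9.10 ± 2.21 CPM (SD, n = 4 each), and the log2 fold change was -2.76 (SE 0.36, 95% interval -3.54 to -1.98, adjusted p = 0.0166 in edgeR), the third smallest p of all tested genes. It was nearly equal in the batches, -2.83 in batch a and -2.56 in batch b as log2 ratios of the means. The call was kept with the replicate number as a block (adjusted p = 0.0378 in edgeR) and lost without DT replicate 2 (adjusted p = 0.0704) and without the batch term (0.135), at about the same fold change.

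*Itln1* had 746, 712, 1924 and 903 CPM in the mock replicates and 298, 159, 330.3 and 149 CPM in the DT replicates. The highest DT mouse had less than the lowest mock mouse, and mock replicate 3 stood above the rest. The means were 1071 ± 575 and 234 ± 93.4 CPM (SD, n = 4 each), with a log2 fold change of -2.12 (SE 0.37, 95% interval -2.92 to -1.33, adjusted p = 0.0341 in edgeR), and -1.67 and -2.55 in batches a and b. This call was less firm than that of *Mptx2*. With the replicate number as a block the log2 fold change was -2.16 and the adjusted p 0.0624 in edgeR, and in turn without each of the 4 mock replicates and without DT replicates 2, 3 and 4 the adjusted p lay between 0.0569 and 0.127, with the fold change between -2.26 and -1.77.

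*Clps* had 47.2, 29.7, 110 and 71.6 CPM in the mock replicates and 23.6, 11.8, 21.3 and 7.15 CPM in the DT replicates. The groups did not overlap here either, although the lowest mock and the highest DT mouse, both of batch a, were close. The log2 fold change was -2.03 (SE 0.40, 95% interval -2.92 to -1.15), of the size of that of *Itln1*, but it missed the threshold (adjusted p = 0.0688 in edgeR). It passed in edgeR without DT replicate 1 (adjusted p = 0.0252) and with DESeq2 (adjusted p = 5.9e-04). The log2 ratio was -1.08 in batch a and -2.59 in batch b.

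*Lyz1*, the classical Paneth cell marker, had 238, 250, 909 and 683 CPM in the mock replicates and 173, 142, 360 and 131 CPM in the DT replicates. Within either batch every DT mouse was lower than every mock mouse, but across batches the groups overlapped, since mock mice of batch b had higher levels than those of batch a. The log2 fold change was -1.18 (SE 0.33, 95% interval -1.90 to -0.46, adjusted p = 0.192 in edgeR), with log2 ratios of -0.63 in batch a and -1.69 in batch b. *Mmp7* had 31.9, 37.2, 129 and 94.2 CPM in the mock replicates and 18.6, 32.9, 38.86 and 39.5 CPM in the DT replicates. Its groups were apart in batch b and overlapped in batch a. The log2 fold change was -1.04 (SE 0.27, 95% interval -1.62 to -0.46, adjusted p = 0.158 in edgeR). With DESeq2 both passed, at adjusted p = 0.0303 for *Lyz1* and 0.0401 for *Mmp7*.

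*Ang4* had the most uneven values, 32.7, 13.4, 174 and 29.4 CPM in the mock replicates and 29.5, 5.90, 15.8 and 2.52 CPM in the DT replicates. The mock mean of 62.5 ± 75.1 CPM (SD, n = 4) rested on mock replicate 3. The log2 fold change of -2.25 had an SE of 1.04 (95% interval -4.75 to 0.24, adjusted p = 0.322 in edgeR) and was -1.07 without mock replicate 3. In batch a the log2 ratio was -0.36 and in batch b -3.34.

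*Mptx1*, the paralog of *Mptx2*, was barely detected, with 153 UMIs in all 8 samples against 662 for *Mptx2*. It had 12.3, 0, 3.87 and 9.26 CPM in the mock replicates and 4.22, 0, 20.7 and 0.42 CPM in the DT replicates. The highest level was that of DT replicate 3. The log2 fold change was 0.05 (adjusted p = 0.990 in edgeR), and its 95% interval, -2.54 to 2.64, is wide and overlaps that of *Mptx2*. The difference between the pentraxin genes was not tested.

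*Guca2b* was high in all samples, with 3400.4, 1887, 3468 and 4690 CPM in the mock replicates and 2408, 3475, 4163 and 3585 CPM in the DT replicates. The groups overlapped in both batches. The means were 3362 ± 1148 and 3407 ± 731 CPM (SD, n = 4 each), and the log2 fold change was 0.04 (95% interval -0.55 to 0.63, adjusted p = 0.959 in edgeR). This interval lay above those of *Mptx2*, *Itln1* and *Clps* and overlapped those of *Lyz1*, *Mmp7*, *Ang4* and *Mptx1*. The differences between *Guca2b* and these genes were not tested. Its sister gene *Guca2a*, guanylin, had 145 ± 120 CPM in mock and 177 ± 73.6 CPM in DT (SD, n = 4 each, adjusted p = 0.395 in edgeR).

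**Figure D2:**
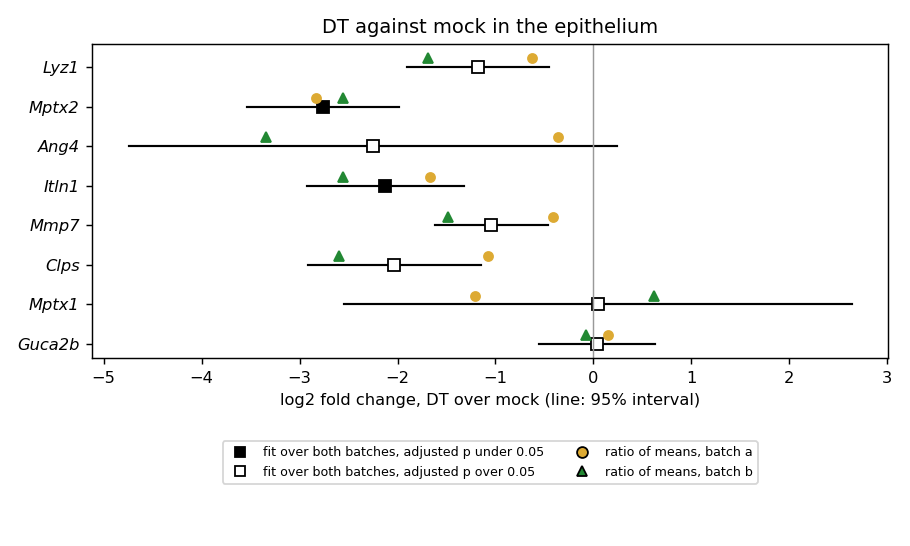
Log2 fold change of DT over mock for each gene, with squares for the edgeR estimate (filled where the adjusted p is under 0.05), lines for its 95% interval, and circles and triangles for the log2 ratio of means in batches a and b. The filled squares are *Mptx2* and *Itln1*, the triangles of *Lyz1*, *Ang4*, *Itln1*, *Mmp7* and *Clps* lie left of their circles, and *Guca2b* lies at 0.04.

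For *Lyz1*, *Ang4*, *Itln1*, *Mmp7* and *Clps* the log2 ratio was more negative in batch b than in batch a. In a test of that difference, the interaction of batch and treatment in edgeR, 0 of the 8 genes and 0% of the 8986 tested genes passed an adjusted p of 0.05, while 223 genes had an unadjusted p under 0.05. *Mmp7* had the smallest unadjusted p of the 8 (0.0258, adjusted p = 1.0 in edgeR, difference -1.14 on the log2 scale). DESeq2 called 0 of the 8 for this term as well.

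The targeted gene, *Lgr5*, had 45.0, 77.3, 10.7 and 24.5 CPM in the mock replicates and 47.2, 32.9, 6.30 and 12.6 CPM in the DT replicates, with a log2 fold change of -0.75 (adjusted p = 0.259 in edgeR). The epithelial marker *Epcam* had 1705 ± 258 CPM in mock and 1682 ± 164 CPM in DT (SD, n = 4 each). No marker of another cell type was called. The 7 immune markers tested all had negative log2 fold changes (-0.95 to -0.37, median -0.49), and their summed level was 287 to 1360 CPM in mock and 131 to 759 CPM in DT. Of the 6 mesenchymal markers none had enough UMIs to be tested, with a summed level of 7.26 to 16.4 CPM in mock and 2.94 to 21.1 CPM in DT, and 1 of the 3 endothelial markers was tested. *Pecam1* had 11.8 ± 9.68 CPM in mock and 6.45 ± 5.65 CPM in DT (SD, n = 4 each, log2 fold change -0.98, 95% interval -1.65 to -0.31, adjusted p = 0.222 in edgeR), while *Cdh5* and *Kdr* had 0 UMIs in all samples. The part of these markers in the results above was not tested.

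Among other genes known from Paneth cells, 5 of 11 had enough UMIs to be tested. All 5 had negative log2 fold changes (median -0.76) and none was called. *Pnliprp2*, a lipase and so a partner of colipase, came closest, with 30.4 CPM in mock and 9.65 CPM in DT (log2 fold change -1.75, adjusted p = 0.0580 in edgeR). *Nupr1*, a stress-induced nuclear protein, had -1.42 (adjusted p = 0.115 in edgeR), and *Cd24a*, a surface marker by which Paneth cells are sorted, -0.76 (adjusted p = 0.185 in edgeR). The Notch ligand *Dll1* had -0.38. The alpha-defensins were lower still, with a median of -3.06 over 11 tested genes, all 11 negative and 3 called, *Defa5*, *Defa24* and *Defa26*. They took 0.644% to 2.11% of the UMIs of a mock sample and 0.0693% to 0.293% of those of a DT sample.

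None of the transcription factors of secretory cells was called. Of 4 tested, *Atoh1*, which starts the secretory fate, had a log2 fold change of -0.25, *Sox9*, needed for Paneth cells to form, 0.23, *Xbp1*, which expands the secretory machinery, 0.29, and *Foxa3* 0.03. Of 7 goblet cell genes tested 6 had negative values and none was called (median -0.35), among them *Zg16* at -0.90 and the mucin *Muc2* at -0.73, and *Agr2* had 0.56. *Itln1*, which goblet cells make too, had a more negative value than each of these 7 genes, and the difference from them was not tested. Stem cell genes had a median of 0.36 (2 of 8 negative, none called) and proliferation genes a median of 0.36 (0 of 8 negative, none called).

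The patterns of the 6 genes with negative values were also compared over the mock and DT samples together. With each batch centred on its own mean, the level of each, as log2(CPM + 1), had a mean Pearson correlation over the 8 samples with the rest of the 6 of 0.88 for *Lyz1*, 0.78 for *Mptx2*, 0.78 for *Ang4*, 0.89 for *Itln1*, 0.75 for *Mmp7* and 0.89 for *Clps*. For *Mptx1* it was 0.27 and for *Guca2b* -0.11. The genes outside the 8 with the most similar pattern were *Defa26*, *Unc13b*, *Defa17*, *Defa24* and *Defa3*, with mean correlations of 0.91 to 0.92. The treatment difference was left in, so genes lower after DT correlate through it and such a value describes the pattern only. Whether the genes vary together between mice of the same group was not tested. *Unc13b*, a vesicle priming factor, had a log2 fold change of -0.62 (adjusted p = 0.226 in edgeR).

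In the microdissected stroma the same 6 genes were found in every zone, and their amounts differed widely between mice. The sections were scaled by a sum that leaves out the genes highest in enterocytes. It also leaves out every other gene that takes 1% or more of the remainder of a section. Values are parts per 1e6 (ppm) of that sum, so they are not shares of all RNA. The list of enterocyte genes was rebuilt from the mock epithelium and is much longer than the study's own, so the scaling differs from that of the study. *Lyz1*, *Itln1* and *Guca2b* are among the 378 enterocyte genes left out of that sum, and their own values are kept on the same scale. Epithelial RNA was present in every section, where 7 enterocyte genes summed to 632 to 174446 ppm and 6 mesenchymal markers to 40.2 to 3259 ppm, against the stromal label. In the crypt the levels per transcript length were 2989 ± 3220 ppm for *Lyz1*, 2284 ± 1726 for *Itln1*, 2135 ± 2124 for *Guca2b*, 805 ± 693 for *Mptx2*, 665 ± 505 for *Ang4*, 311 ± 282 for *Clps*, 174 ± 137 for *Mmp7* and 2.56 ± 4.44 for *Mptx1* (SD, n = 3 mice). Neighbours in this order differed by less than their spread, except *Mmp7* and *Mptx1*.

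*Lyz1* had 1260.2, 1003 and 6704 ppm in the crypts of mice 1 to 3, 756, 226, 461, 1.99 and 2256 ppm at the villus bottom of mice 1 to 5, and 2521, 280.3, 13651, 3.17 and 36.3 ppm at the villus tip. Mouse 3 was highest in the crypt and at the tip, and mouse 4 was near 0 in every zone. In the 3 mice with both zones the villus bottom was lower than the crypt each time, and the same held for *Mptx2*, *Ang4*, *Itln1* and *Clps*, while *Mmp7* was lower in 2 of 3. *Guca2b* was higher at the villus bottom than in the crypt in 3 of 3 mice, with 4892, 929 and 2032 ppm against 4456, 289.6 and 1658 ppm. Between villus tip and crypt the mice disagreed, with *Lyz1*, *Mptx2*, *Ang4*, *Itln1*, *Mmp7* and *Guca2b* higher at the tip in 2 of 3 and *Clps* in 3 of 3.

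**Figure D3:**
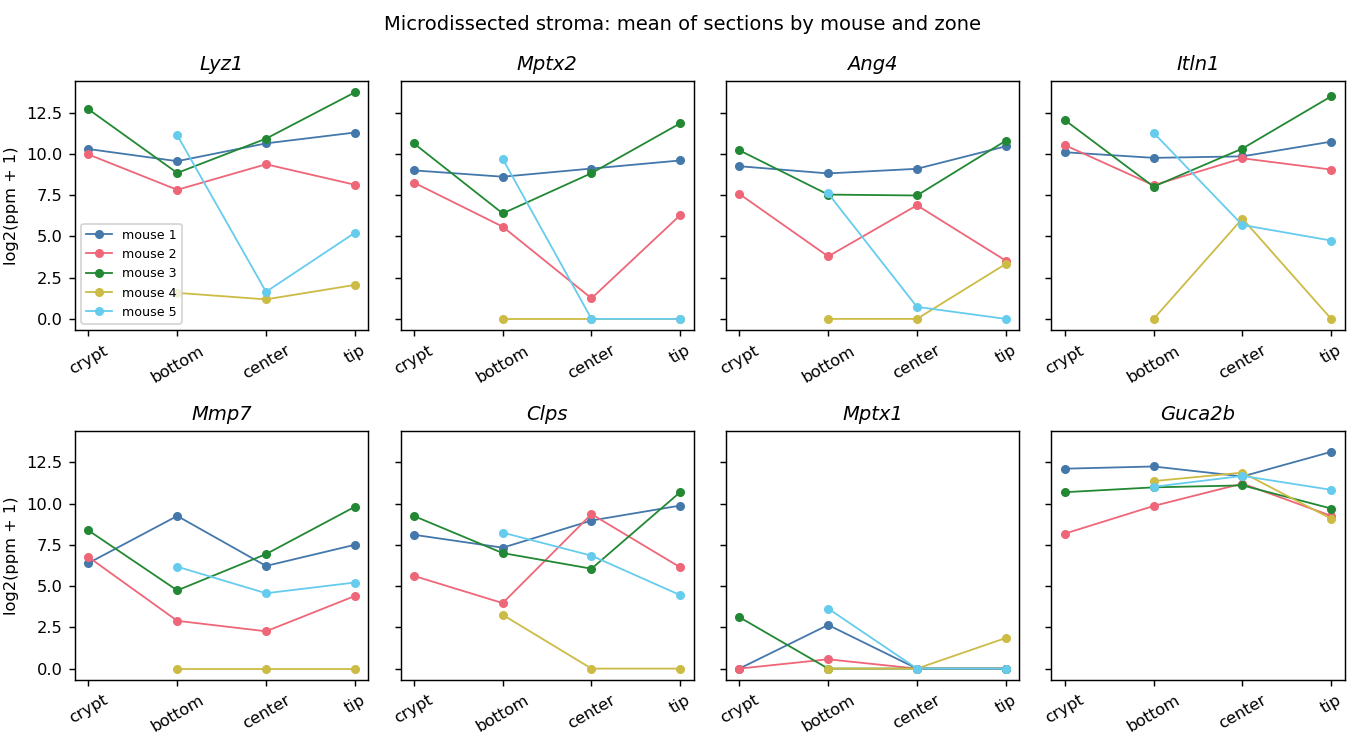
Level of each gene, as log2(ppm + 1), in each stromal zone, with 1 line per mouse over the mean of its sections. Lines of mice 4 and 5 start at the villus bottom since they have no crypt, mouse 4 lies at or near 0 for *Mptx2* and *Mmp7* in all its zones, and all lines of *Guca2b* lie above those of *Mptx1*.

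No zone difference was larger than the spread between mice. Of the 13910 genes tested with limma, 0% were called between villus tip and crypt (0 genes, 436 at an unadjusted p under 0.05) and 0% between villus bottom and crypt (0 genes, 204 at an unadjusted p under 0.05), and so 0 of the 8 genes were called in either. None of the 8 had crypt levels all above those of the villus tip or the villus bottom, which 1.8% and 1.15% of all tested genes had. *Mptx1* was too low to be tested with limma. For villus bottom over crypt the log2 differences on log2(ppm + 1), which shrinks differences of low genes, were -3.20 for *Lyz1* (95% interval -8.21 to 1.81), -3.24 for *Mptx2*, -3.47 for *Ang4*, -3.47 for *Itln1*, -2.56 for *Mmp7*, -1.70 for *Clps* and 0.77 for *Guca2b* (-1.16 to 2.69). A two-sided exact permutation test shuffled the 3 crypt and 5 villus means as if they came from separate mice. Mice 1 to 3 gave both, so it ignores the pairing and its p values are only a rough guide. For villus bottom over crypt this permutation test gave p between 0.161 (*Ang4*) and 0.679 (*Mptx1*). For villus tip over crypt it gave p between 0.286 and 0.929, and it allows no p under 0.0179. With the mouse as a block, which compares zones within mice, the differences for villus bottom over crypt were smaller, at -0.71 for *Lyz1*, -0.89 for *Mptx2*, -1.20 for *Ang4*, -1.36 for *Itln1*, -1.23 for *Mmp7* and -0.13 for *Clps*, while *Guca2b* had 0.78. For villus tip over crypt the block moved *Lyz1* from -2.90 to -0.41, *Mptx2* from -3.75 to -1.39, *Ang4* from -3.39 to -1.13, *Itln1* from -3.29 to -1.18, *Mmp7* from -1.79 to -0.45 and *Clps* from -1.43 to 0.14. Crypts came from mice 1 to 3 only, so the values without the block also hold the difference between these mice and mice 4 and 5. With such intervals a zone difference of several fold in either direction was not detectable.

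The spread followed single sections and mice. At the tip the mean of *Lyz1* was 3298 ± 5882 ppm (SD, n = 5) and its median 280.3 ppm, and *Itln1* had a mean of 2766 and a median of 531 ppm. Defensin-rich sections occurred in the crypt too, up to 502920 ppm, a value on the scale above and not a share of all RNA. In 1 tip section of mouse 3 the 8 genes summed to 64265 ppm and the alpha-defensins to 885247 ppm, and in 1 tip section of mouse 1 the alpha-defensins reached 721412 ppm. In mouse 4 the alpha-defensins summed to 37.2 to 4711 ppm over its 3 zones, and *Mptx2* and *Mmp7* were listed at 0 in all 3. Without mouse 3 the tip-over-crypt difference of *Lyz1* was -3.46, and without mouse 4 it was -1.40, on the log2 scale. *Guca2b* was highest in the tip of mouse 1 (9052 ppm), where the enterocyte genes were highest too (94147 ppm). The part of defensin-rich or enterocyte RNA in these values was not tested.

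In the sorted plates, UMIs of the 6 genes were found in 282 wells. Depth was low, so a well without such a UMI was not shown to lack the RNA. Of 12346 wells, 2347 held 400 to 8000 UMIs and at least 250 genes and were kept as cells (median 1359 UMIs). The study first subtracted the mean of the empty wells of each plate. That was not done here, and empty wells were not singled out, so low counts can hold background. The 384 well barcodes are shared by the plates. The kept cells were grouped by clustering without the 8 genes and without defensins, and 1794 were epithelial-like, 354 mesenchymal-like and 199 immune-like by markers. Gates did not always hold what their label names, as all 73 cells of the CD45 gate and all 9 of the CD31 gate were epithelial-like, as were 604 of 957 from the PDGFRa singlet gate. So the cells are described by class and not by gate. At least 1 UMI of the 6 genes was found in 115 cells (4.9%) of 7 of the 8 mice.

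*Itln1* was seen in 74 cells, *Lyz1* in 24, *Clps* in 18, *Ang4* in 9, *Mmp7* in 8, *Mptx2* in 4 and *Mptx1* in 1. *Guca2b* was seen in 1275 cells, from all 8 mice. In epithelial-like cells its share was 70.4% (exact 95% binomial interval 68.2% to 72.5%), against 3.39% (1.76% to 5.85%) in mesenchymal-like cells and none of the 199 immune-like cells (0 of 199, up to 1.84% by the exact interval and 1.51% as the share that 3 cells would make). Thinned to 400 UMIs per cell, the shares in epithelial-like and mesenchymal-like cells were 42.9% and 1.74%, beside median depths of 1614, 997.5 and 669 UMIs in the 3 classes before thinning. *Itln1* was in 4.01% of epithelial-like cells (3.15% to 5.03%) and 0.565% of mesenchymal-like cells (0.0685% to 2.03%), or 1.15% and 0.318% after thinning. *Lyz1* was in 0.836% of epithelial-like cells (0.469% to 1.38%) and in 2.26% of mesenchymal-like cells (0.981% to 4.40%), so the share alone did not set epithelial-like cells above a class that should lack the gene. The highest count in a cell was 14 UMIs in epithelial-like and 2 in mesenchymal-like cells, values that single cells set. After thinning, the *Lyz1* shares were 0.392% and 0.832%, again higher in mesenchymal-like cells. Unthinned shares were also higher there for *Mptx2* (0.565% against 0.11%), *Ang4* (0.565% against 0.390%) and the alpha-defensins (9.04% against 8.03%). For *Mptx1*, *Mmp7*, *Clps*, *Itln1* and *Guca2b* they were higher in epithelial-like cells. The binomial intervals above cover counting error only, and cells of 1 mouse are not replicates.

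**Figure D4:**
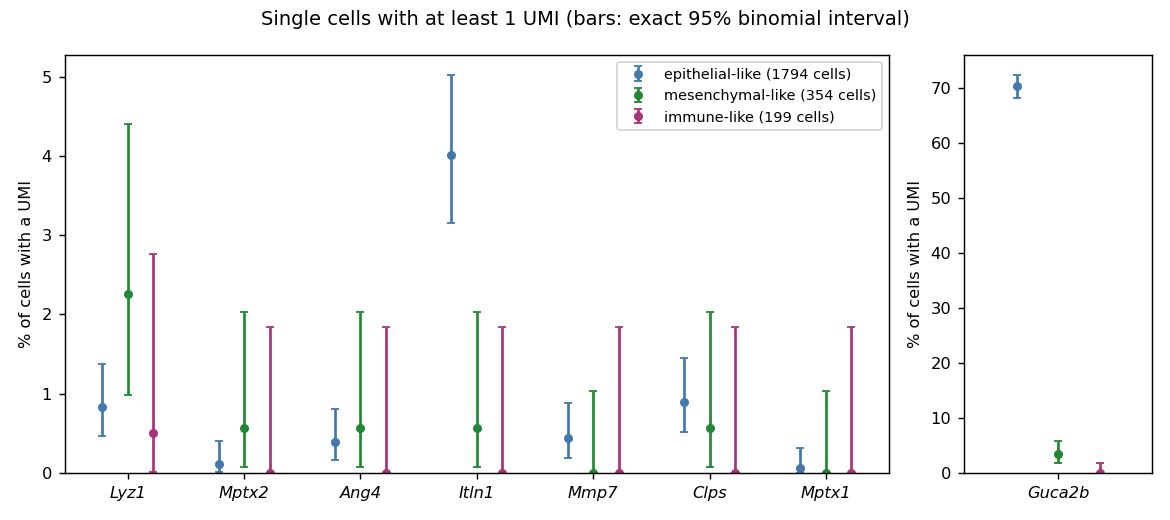
Percent of cells with at least 1 UMI of each gene in epithelial-like (1794), mesenchymal-like (354) and immune-like (199) cells, with exact 95% binomial intervals for counting error. *Guca2b* has its own axis and stands at 70.4% in epithelial-like cells, *Itln1* at 4.01%, and the intervals of the other genes overlap between classes.

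In a few wells several of the 6 genes met. Of the 115 cells, 105 had only 1 of the 6, 5 had 2, and 5 had 3 or more, which held 163 of the 318 UMIs of these genes among kept cells. An alpha-defensin UMI was found in 6.5% of cells with none of the 6 genes, in 23.8% of those with 1, and in all 5 with 3 or more. It also differed by gate, with 39 of 62 cells of the EPCAM singlet gate and 5 of 461 of the PDGFRa singlet Pop3 gate. The part of gate, plate and depth in these shares was not tested. The cell with all 6, from mouse H (mice of this experiment are lettered A to H), came from the PDGFRa EPCAM doublet gate and had 7 UMIs of *Lyz1*, 4 of *Mptx2*, 6 of *Ang4*, 25 of *Itln1*, 2 of *Mmp7* and 3 of *Clps*, beside 0 of *Guca2b* and 501 of defensins, among 1720 UMIs. A cell of mouse A had 5 of the 6, all but *Mptx2*, with 770 defensin UMIs and 0 of *Guca2b*. A cell of mouse C had 14 UMIs of *Lyz1* and 39 of *Itln1*, with 342 of defensins and 1 of *Guca2b*. These 3 cells clustered with the goblet-like cells (29 cells, led by *Clca1*, *Agr2*, *Fcgbp* and *Muc2*), and the other 2, both of mouse G, with mesenchymal-like cells. Across the 5 cells *Guca2b* gave 1 UMI, while it was found in 74 of the 105 cells with 1 of the 6 genes.

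The counts by gene that follow include these 5 cells. The median depth was 2567 UMIs in cells with *Itln1*, 1519 with *Lyz1* and 1686.5 with *Clps*, against 1359 over all kept cells. Of the 74 cells with *Itln1*, 15 had a defensin UMI (20.3%), 20 a goblet gene UMI (27.0%) and 60 a *Guca2b* UMI. Of the 24 cells with *Lyz1*, 16 had a defensin UMI (66.7%), against 6.97% of cells without *Lyz1*, and of the 18 with *Clps* 9 did. The highest *Itln1* count in a cell was 39 and the highest *Lyz1* count 14, both in the cell of mouse C. The 1 cell with *Mptx1*, of the goblet-like cluster, had 4 of its UMIs, 155 UMIs of goblet genes and 0 of defensins.

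**Figure D5:**
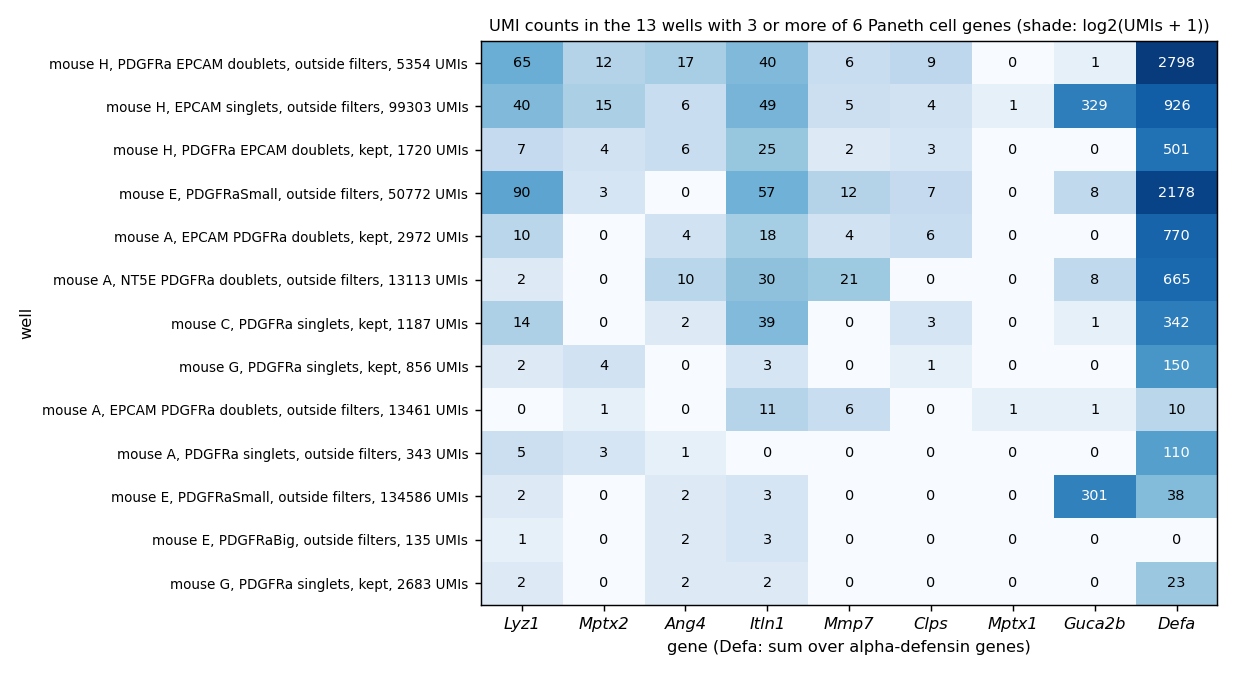
UMI counts of the 8 genes and of the alpha-defensins together in each of the 13 wells, kept or not, with 3 or more of the 6 genes, shaded by log2(UMIs + 1), with the mouse, gate and total UMIs at the left. Defensins reach 2798 UMIs in the top well, *Mptx1* stays at 0 or 1, and *Guca2b* is at or under 8 in 11 of the 13 wells.

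Against the name of the set, *Guca2b* was in most epithelial-like cells. It was not called after DT, but neither were *Lyz1*, *Mptx1*, *Ang4*, *Mmp7* and *Clps*. In the zones of mouse 4 it had 543 to 3778 ppm, where *Lyz1* had 1.27 to 3.17 ppm. Mouse 3 had the reverse order in the crypt (1658 ppm for *Guca2b*, 6704 for *Lyz1*) and at the villus tip (835 and 13651 ppm). *Mptx1* was too low to place.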

How the data were processed

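Epithelium, microdissected stroma and sorted cells of mouse jejunum were analysed from the deposited tables. For the epithelium (mcSCRB-seq, a 3′ tag method with UMIs) and the sorted wells the deposited values are raw counts of UMIs per gene (zUMIs, GRCm38). For the LCM sections the authors made TPM values per gene with kallisto on coding transcripts and deposited them. The labels name bcl2fastq 2.15.0.4. Groups followed the labels, and each mouse counted as 1 replicate. Members and gene lists were chosen with earlier results of these data known.

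DT was compared with mock in edgeR 4.0.16 (TMM, quasi-likelihood test, batch as a term, Benjamini-Hochberg adjustment) over genes above 1e-05 of the UMIs in 2 or more samples. The LCM sections of a mouse and zone were averaged, then compared with limma 3.58.1 on log2(ppm + 1), over genes with a zone mean above 5 ppm. The enterocyte genes left out of the scaling were chosen in the mock epithelium by their summed share of UMIs. Other genes that each took 1% or more of the remainder of a section were left out of its scaling sum too. The study used another enterocyte table, not used here, and a much shorter list. Wells were clustered with Seurat 5.3.0 (11 components, resolution 2), no doublet caller was run because some gates hold pairs, and 352 wells of a plate that no label names were not used. Named genes were the 8, *Lgr5*, up to 4 examples or the called genes of each list, defensins and the 5 genes most like the set. Genes that lead a cluster were named beside it.

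Same-numbered DT and mock samples deviated together (correlations of 0.61, 0.41, 0.66 and 0.58) so the fit with the replicate number as a block is given beside the fit with the batch term where it changes a call. The pairing follows from the batches, since within batches the correlations were -0.16 and -0.06. LCM crypt and tip of the same mouse gave 0.37, -0.08 and 0.12, and come from the same animals, so a fit with the mouse as a block is given too. The tests across all genes were first tested on simulated data. Alternatives were other normalizations, filters, pseudocounts, DESeq2 1.42.0, blocks and left-out mice.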

Additional observations from a re-analysis of the deposited data

Results flagged for a closer look

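Of 39 groups of 4 or 5 mice examined by the gap-over-range rule of Dixon, 9 held 1 mouse far from the others. The rate of about 1 in 20 for this rule holds for normal and independent values. These values are uneven, some are 0, and several flags share a mouse, so the number flagged cannot be set against chance. In the mock epithelium, replicate 3 stood far above the other mice in *Ang4* (174 CPM) and in *Itln1* (1924 CPM), and it also had the highest *Lyz1*, *Mmp7* and *Clps*. At the villus tip mouse 3 stood far above the others in *Lyz1* (13650 ppm), *Mptx2* (3725 ppm), *Itln1* (11550 ppm) and *Mmp7* (898 ppm), the mouse with the tip section richest in defensins. *Mptx1* was at 2.61 ppm at the tip of mouse 4 and listed at 0 in the tips of the others. *Mmp7* at the villus bottom was at 610.1 ppm in mouse 1, against at most 71.5 ppm in the others. *Guca2b* at the villus tip was at 9052 ppm in mouse 1.

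RNA of the 6 Paneth cell genes also appeared in wells that the limits on UMIs and genes leave out, above the 3 UMIs that a count of 0 would allow. Wells over 8000 UMIs held 413 UMIs of these genes (75 wells), wells of 400 to 8000 UMIs with under 250 genes held 200 UMIs (1102 wells), and wells under 400 UMIs held 160 UMIs (8822 wells). The kept cells held 318 UMIs, 29.1% of all 1091, although they held 58.8% of all UMIs. Of the 13 wells with 3 or more of the 6 genes, 5 were kept. A well from the PDGFRa EPCAM doublet gate of mouse H, with all 6 genes, had 149 UMIs of the 6 genes and 2798 defensin UMIs, 52.3% of its 5354 UMIs, but 180 genes, so the minimum of genes left it out. Per 1e6 UMIs, *Lyz1* was at 122 in the wells with under 250 genes and at 13.4 in the kept cells, and *Guca2b* at 468 and 1536.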

How the results depend on the processing

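Of the 8 genes, 2 were called lower after DT in edgeR. The count was 0 without the batch term, 1 with the replicate block, 5 with DESeq2 and 6 with no filter on low counts, and 0 to 3 with each replicate left out. Over all genes, 30 were called lower and 2 higher, against 1 and 0 without the batch term, 3 and 0 with the replicate block, 114 and 45 with DESeq2, 333 and 302 with no filter, and 3 to 38 and 0 to 6 with each replicate left out. The cause of these differences was not tested. The direction of *Lyz1*, *Mptx2*, *Ang4*, *Itln1*, *Mmp7* and *Clps* held in all these fits. *Mptx1* turned to -0.092 with the replicate block and -0.41 with DESeq2, and lay between -0.55 and 0.54 with replicates left out, except without mock replicate 1 or DT replicate 3, where it was too low to be tested. *Guca2b* lay between -0.13 and 0.20 with replicates left out. The block changed no other call of the 8 than that of *Itln1*. In the LCM data 2 genes were called in each comparison with no filter on low values, and none of the 8 in any fit. The mouse as replicate block brought *Lyz1*, *Mptx2*, *Ang4*, *Itln1*, *Mmp7* and *Clps* closer to 0 in both comparisons. *Clps* at the tip turned to 0.14 with it and ranged from -2.42 to 0.13 when single mice were dropped, while *Guca2b* at the tip lay between -0.71 and 0.43. The share of cells with a UMI of the 6 genes, 4.9%, was 1.51% after thinning to 400 UMIs and 1.32% when 2 UMIs were asked, and 4.30% to 5.82% under other limits on UMIs and genes, 2 of them chosen after seeing the data. Low UMI counts limit *Mptx1*, and all but *Guca2b* in single cells, the number of mice limits all zone comparisons, and the LCM depth is unknown.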

Other observations

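*Guca2b* differed between groups of epithelial-like cells that were clustered without it. It was found in 60 of 62 cells (96.8%) of a cluster led by *Ubd* and *Fam84a* and in 207 of 222 (93.2%) of one led by *Cubn*, *Npl* and *Cyp3a25*, which held 2349 of its 6881 UMIs. It was in 12 of 29 goblet-like cells (41.4%) and in 6 of 110 cells (5.45%) of a cluster led by *Clca3b*, *Hist1h2ap* and *Stmn1*, the last a gene of dividing cells. The median depths of these 4 clusters were 1666, 3423.5, 1930 and 2901.5 UMIs. Cells of 1 mouse are not replicates, and the differences between clusters were not tested.

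*Lyz2*, which shares long runs with *Lyz1*, had 50.03 ± 43.1 CPM in the mock and 22.3 ± 15.3 CPM in the DT epithelium (SD, n = 4 each), a log2 fold change of -1.05 (adjusted p = 0.22 in edgeR), close to the -1.18 of *Lyz1*. How far reads of one were counted for the other was not tested.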
